A study of Mus musculus with 6 samples.

Results

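The genes described here are 35 members of the cadherin superfamily, taken as a named set of classical cadherins and of protocadherins outside the clustered arrays, together with the Celsr and Fat cadherins. They comprised 5 type I classical cadherins, 12 type II classical cadherins, T-cadherin, 4 delta-1 and 5 delta-2 protocadherins, 2 other protocadherins, 3 Celsr and 3 Fat cadherins. The set was given by gene symbol and not by measured values. All 35 were found, each on 1 locus, among 29606 loci of which 23532 carry a gene name. Cadherins are calcium-dependent adhesion proteins of the cell surface. Classical cadherins bind the same or a related cadherin on the neighbouring cell and are tied to actin through catenins. Protocadherins of the delta type adhere more weakly and bind signalling proteins inside the cell, while the large Celsr and Fat proteins act in planar polarity and tissue organisation. In the developing forebrain, combinations of cadherins are known to mark brain divisions and to take part in neuronal sorting and migration.

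RNA was measured in interneurons sorted by fluorescence from the GEs (ganglionic eminences) of E13.5 mouse embryos. There were 3 libraries of wild-type cells (WT, CCP1 Wt/Wt; Dlx5,6 CRE GFP) and 3 of conditional knockout cells (CCP1 cKO, CCP1 lox/lox; Dlx5,6 CRE GFP), of strain MF1 by the labels. Both genotypes therefore carried the transgene in which Dlx5/6 regulatory sequences drive Cre and GFP, so that recombination and sorting rested on the same sequences, and all libraries came from GFP-positive cells. CCP1, encoded by Agtpbp1, is an enzyme that removes glutamates from tubulin and other proteins, and the floxed allele loses a pair of exons. The comparison asked whether loss of CCP1 in these cells goes with a change of the RNA of adhesion genes. By the study's legends the embryos came from separate females, while the labels do not tie a library to an embryo, and p-values measure the spread between these libraries. In bulk RNA, fewer cells of a type and less RNA per cell cannot be told apart.

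Values are FPKM, fragments scaled to transcript length and to the size of the library, which allow levels of different genes to be set side by side. FPKM summed to between 447510 and 542953 in a library, and 13.2% to 28.3% of that sum came from the 10 highest loci. The depth is unknown in absolute terms, and relative depth ranged from 0.724 in WT replicate 1 to 1.14 in WT replicate 3. Agtpbp1 measured 20.0, 18.9 and 18.1 FPKM in WT and 9.68, 10.1 and 9.56 FPKM in CCP1 cKO, so the libraries matched their labels. Subpallial markers were abundant, Dlx2 being the highest with a mean of 173 FPKM, as were Vim among the progenitor markers (173 FPKM) and Top2a among the cell cycle markers (150 FPKM), while Bcl11b (82.7 FPKM) led the striatal markers. No marker of endothelial cells, pericytes, microglia or choroid plexus reached a mean of 1 FPKM, the highest being Cldn5, Pdgfrb, Aif1 and Epcam. Col1a2 was the highest meningeal marker (1.58 FPKM) and Hbb-y the highest red blood cell marker (11.6 FPKM). Immediate early genes, led by Jun, summed to 138 and 142 FPKM in replicate 1 of WT and of CCP1 cKO and to between 26.9 and 42.0 FPKM in the other 4 libraries. The 8 cortical excitatory markers differed between libraries and are taken up with the genes that moved with them.

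Of the 35 genes, 26 had a mean of at least 1 FPKM over the 6 libraries, 6 had a mean from 0.1 to 1 FPKM, and 3 were under 0.1 FPKM. All 4 delta-1 and all 5 delta-2 protocadherins, all 3 Celsr and all 3 Fat cadherins were among the 26, as was T-cadherin. Only 2 of 5 type I and 7 of 12 type II classical cadherins reached that level. The median of the 26 was 11.5 FPKM, beside 9.84 FPKM over the 13200 loci that passed the same filter. Expression of the group was thus spread over a wide range with a few genes far above the rest.

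**Figure D1:**
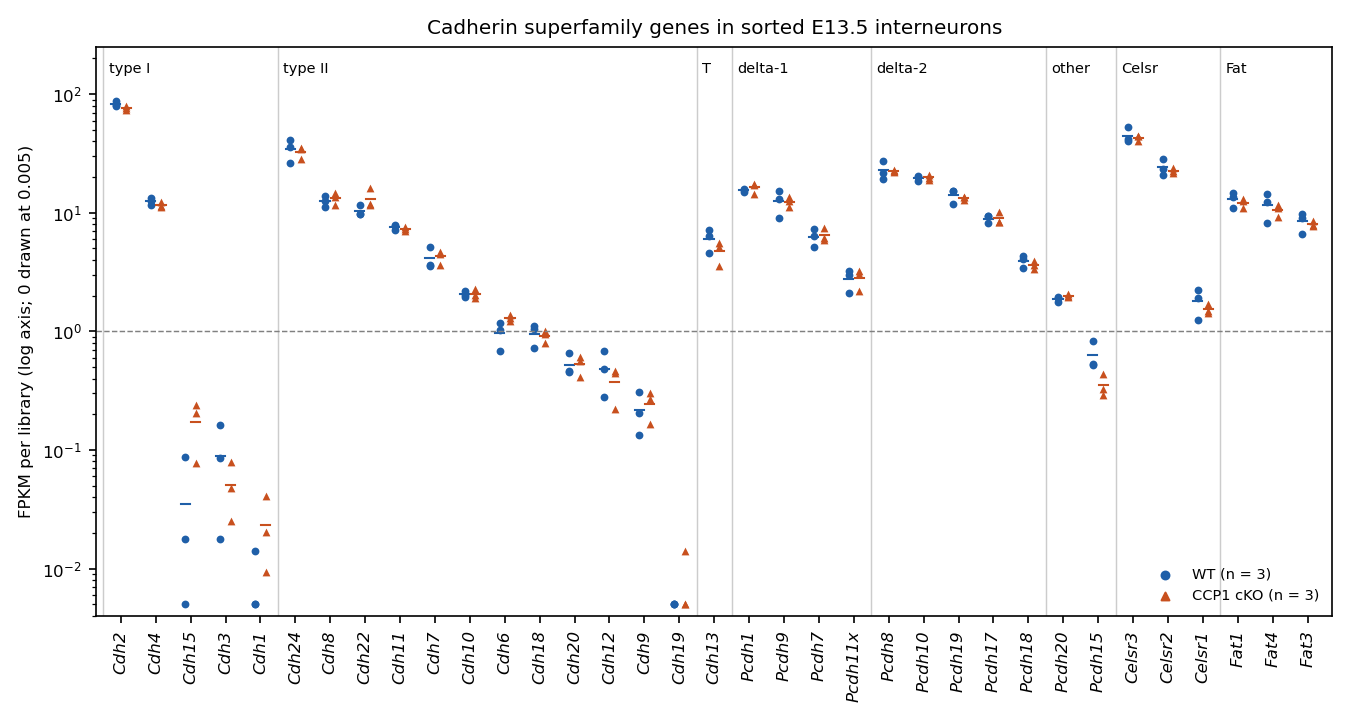
FPKM of each of the 35 genes in each library, on a log axis, with the genes grouped by subfamily and ordered by mean; blue circles are the 3 WT libraries, orange triangles the 3 CCP1 cKO libraries, short bars the group means and the dashed line the filter at 1 FPKM. Values of 0 are drawn at 0.005. Cdh2 is highest with a mean of 79.7 FPKM, 9 genes lie below the line, and the symbols of both genotypes overlap for most genes.

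Among type I classical cadherins, Cdh2 (N-cadherin), the main cadherin of neural progenitors and young neurons, was the most abundant gene of the group. It measured 81.7, 87.4 and 78.8 FPKM in WT and 80.0, 76.5 and 73.6 FPKM in CCP1 cKO. The highest CCP1 cKO library lay within the WT range, and the log2 fold change of CCP1 cKO over WT was -0.11 (95% interval -0.27 to 0.06, limma adjusted p = 0.976). Cdh4 (R-cadherin), which is found in restricted domains of the forebrain, measured 13.4, 11.5 and 12.6 FPKM in WT and 12.2, 11.4 and 11.1 FPKM in CCP1 cKO, with overlapping groups. The type I genes of epithelia and muscle were near 0. Cdh1 (E-cadherin) had a mean of 0.0141 FPKM, Cdh3 (P-cadherin) of 0.0694 FPKM and Cdh15 (M-cadherin) of 0.104 FPKM. Cdh2 made up 44.6% to 49.4% of the summed FPKM of the 17 classical cadherins in every library.

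Among type II classical cadherins, Cdh24 was the highest. It measured 26.1, 41.0 and 36.1 FPKM in WT and 28.2, 34.3 and 35.1 FPKM in CCP1 cKO, so that replicate 1 was the lowest library of each genotype. Cdh24 lies at chr14:54631326-54641724 on the minus strand (mm10) and overlaps the coding gene Gm17606 on the other strand. The kit kept strand, but the sources used here do not say whether counting used it. Together Cdh2 and Cdh24 made up 65.1% to 71.7% of classical cadherin FPKM. The 95% interval of the log2 fold change of Cdh24 ran from -0.46 to 0.34.

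Cdh8, a type II cadherin of distinct forebrain territories, measured 13.9, 12.7 and 11.2 FPKM in WT and 13.6, 14.6 and 11.7 FPKM in CCP1 cKO, with replicate 3 lowest in each. Cdh22 (PB-cadherin, known from brain) measured 11.7, 9.82 and 9.74 FPKM in WT and 11.6, 11.9 and 16.1 FPKM in CCP1 cKO. The groups overlapped by a narrow margin, since WT replicate 1 lay just above the lowest CCP1 cKO library. Its log2 fold change of 0.30 (95% interval -0.01 to 0.62) was, with all libraries, the largest increase among the 26 genes at a pseudocount of 1 FPKM (limma adjusted p = 0.976, exact permutation p = 0.2), but at 0.1 FPKM it was 0.33, below the 0.43 of Cdh6, and after rescaling to TPM 0.308, below the 0.315 of Cdh6. In limma its unadjusted p was also the smallest of the 26 genes, at 0.0570. CCP1 cKO replicate 3 set much of that value, since the log2 fold change without it was 0.16, and without replicate 3 of either genotype 0.12.

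The other type II cadherins formed a descending series. Cdh11 (OB-cadherin), of mesenchyme and brain, ranged from 7.01 to 7.84 FPKM. Cdh7 and Cdh10 had means of 4.21 and 2.07 FPKM. Cdh6 (K-cadherin), which marks a boundary between cortex and lateral GE in mouse embryos, measured 1.03, 1.18 and 0.687 FPKM in WT and 1.31, 1.23 and 1.38 FPKM in CCP1 cKO. Each CCP1 cKO library was above each WT library, but the levels are low and the interval of the log2 fold change (0.24, 95% interval -0.13 to 0.61) held 0. The value was 0.13 without WT replicate 3 and 0.32 without WT replicate 2, and a pseudocount of 0.1 FPKM in place of 1 raised it to 0.43. The means of Cdh18, Cdh20, Cdh12 and Cdh9 were 0.939, 0.525, 0.431 and 0.231 FPKM. Cdh19, a cadherin of Schwann cell precursors, was listed at 0 in 5 of the 6 libraries.

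Cdh13 (T-cadherin), which has no transmembrane part and is held to the membrane by a lipid anchor, measured 6.39, 7.21 and 4.59 FPKM in WT and 5.60, 5.12 and 3.57 FPKM in CCP1 cKO. Replicate 3 was the lowest library of each genotype and the groups overlapped. The log2 fold change of -0.29 was, with all libraries, the largest decrease among the 26 genes of at least 1 FPKM, with a 95% interval from -0.74 to 0.15 (limma adjusted p = 0.976). It depended on single libraries, being -0.45 without WT replicate 3, -0.18 without WT replicate 2 and -0.13 without CCP1 cKO replicate 3.

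The delta-1 protocadherins were led by Pcdh1, which measured 15.1, 15.97 and 15.6 FPKM in WT and 14.4, 17.2 and 17.6 FPKM in CCP1 cKO. Its log2 fold change was 0.07 (95% interval -0.13 to 0.27) and ran from 0.02 without CCP1 cKO replicate 3 to 0.15 without CCP1 cKO replicate 1. Pcdh9 measured 13.2, 15.3 and 9.02 FPKM in WT and 12.5, 13.48 and 11.3 FPKM in CCP1 cKO. Replicate 3 was again the lowest library of each genotype, and the group means of Pcdh9 were nearly equal at 12.5 and 12.4 FPKM. Pcdh7 ranged from 5.12 to 7.45 FPKM and Pcdh11x, on the X chromosome, from 2.12 to 3.23 FPKM. Delta-1 genes made up 32.9% to 38.0% of the summed FPKM of the 9 delta protocadherins.

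The delta-2 protocadherins, whose cytoplasmic part can bind the WAVE complex that regulates actin, were the more abundant delta class. Pcdh8, known in rat as an activity-regulated adhesion gene, measured 27.5, 19.3 and 21.6 FPKM in WT and 23.0, 21.9 and 22.3 FPKM in CCP1 cKO. Replicate 1 was the highest library of each genotype, as it also was for Cdh4, Pcdh7, Pcdh10, Cdh10 and Celsr1 among the 26 genes. The immediate early genes also had their highest sums in these libraries (138 and 142 FPKM). Their part in the level of Pcdh8 was not tested. The share of all loci with replicate 1 highest in both genotypes was not computed, so the genes named are a description. Pcdh10 (OL-protocadherin), needed for growth of striatal axons in mouse, was steady at 20.3, 18.7 and 20.1 FPKM in WT and 20.7, 19.8 and 19.0 FPKM in CCP1 cKO. The 95% interval of its log2 fold change, -0.14 to 0.16, was the narrowest of the group. Pcdh8 and Pcdh10 together held 56.9% to 64.1% of delta-2 FPKM.

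Pcdh19, an X-linked gene mutated in a human epilepsy, measured 15.2, 15.3 and 11.8 FPKM in WT and 13.6, 13.51 and 12.9 FPKM in CCP1 cKO. Pcdh17 ranged from 8.14 to 10.1 FPKM. Pcdh18 measured 4.33, 4.10 and 3.45 FPKM in WT and 3.63, 3.91 and 3.34 FPKM in CCP1 cKO, with overlapping groups. Its log2 fold change was -0.10 (95% interval -0.34 to 0.15) and ran from -0.17 without WT replicate 3 to -0.05 without WT replicate 1 and -0.05 without CCP1 cKO replicate 3. Of the remaining protocadherins, Pcdh20 measured 1.77, 1.92 and 1.94 FPKM in WT and 2.05, 2.003 and 1.95 FPKM in CCP1 cKO. Every CCP1 cKO library was above every WT library, though only as 1.95 against 1.94 FPKM at the nearest pair, and the log2 fold change was 0.06 (95% interval -0.18 to 0.31). Pcdh15, a tip-link protein of inner-ear hair cells, measured 0.836, 0.523 and 0.530 FPKM in WT and 0.328, 0.293 and 0.437 FPKM in CCP1 cKO. All CCP1 cKO libraries were lower than all WT libraries, and the CCP1 cKO mean was 0.560 of the WT mean.

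The Celsr genes encode the seven-pass cadherins of planar polarity, and Celsr3 is needed in mouse for forebrain axon tracts and for interneuron migration. Celsr3 was the second gene of the whole group at 41.7, 52.5 and 40.1 FPKM in WT and 40.1, 44.3 and 44.6 FPKM in CCP1 cKO. Celsr2 measured 23.4, 28.7 and 20.8 FPKM in WT and 21.7, 22.6 and 23.7 FPKM in CCP1 cKO. Both overlapped fully between genotypes, and WT replicate 2 was the highest library of each. Celsr1, which in mouse is mainly a gene of progenitors, measured 2.25, 1.93 and 1.25 FPKM in WT and 1.70, 1.42 and 1.47 FPKM in CCP1 cKO. Its log2 fold change of -0.14 (95% interval -0.53 to 0.26) rested on single WT libraries, being -0.02 without WT replicate 1 and -0.29 without WT replicate 3. Celsr3 took 61.9% to 64.9% of Celsr FPKM, in a library range narrower than that of its own level. Celsr3 overlaps Slc26a6 on its own strand and Celsr1 overlaps Trmu on the other strand, so fragments of these pairs may be shared.

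The 3 Fat cadherins, giant proteins of which Fat4 is the receptor of the Dachsous pair, were of similar level. Fat1 measured 13.53, 14.7 and 11.02 FPKM in WT and 12.5, 13.1 and 11.02 FPKM in CCP1 cKO. Fat4 measured 12.3, 14.5 and 8.14 FPKM in WT and 11.6, 11.04 and 9.30 FPKM in CCP1 cKO. Fat3 ranged from 6.68 to 9.76 FPKM. For each of the 3, replicate 3 was the lowest library of both genotypes. The log2 fold change was -0.09 for Fat1 (95% interval -0.36 to 0.18) and -0.09 for Fat4 (-0.55 to 0.37). Both rested on single WT libraries, being -0.20 and -0.31 without WT replicate 3 and -0.0049 and 0.08 without WT replicate 2. Summed Fat FPKM was 34.8, 39.0 and 25.8 in WT and 32.6, 32.1 and 28.1 in CCP1 cKO.

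The order of the 26 genes by mean level was examined between neighbours. Of 25 neighbouring pairs, 9 stood in the same order in 6 of 6 libraries (exact sign-flip test, two-sided, p = 0.031, the smallest that 6 libraries allow, and 0.0868 after adjustment over the 25 pairs), and 0 pairs passed an adjusted threshold of 0.05. The top of the order was among the 9, as Cdh2 exceeded Celsr3, Celsr3 exceeded Cdh24 and Cdh24 exceeded Celsr2 in every library. Celsr2 and Pcdh8 did not differ beyond their spread, with Celsr2 higher in 3 of 6 libraries. From Pcdh1 at 15.98 FPKM down through Pcdh19, Cdh8, Fat1, Pcdh9, Cdh4 and Cdh22 to Fat4 at 11.1 FPKM, no neighbours kept one order in all 6 libraries.

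Between genotypes, none of the 26 genes passed. Of these, 0 had a limma adjusted p under 0.05, beside 0.0909% of all 13200 loci tested (12 loci), and 0 had an unadjusted p under 0.05, beside 4.62% of all loci. The log2 fold change was positive for 12 and negative for 14 genes, with a median of -0.03, beside -0.02 over all loci. The point values ran from -0.29 for Cdh13 to 0.30 for Cdh22. For 21 of the 26 genes the 95% interval lay within 0.5 of 0 on either side, and the intervals as a whole reached from -0.74 to 0.62. These intervals are for single genes, while a call needed an adjusted p under 0.05 over 13200 loci. Differences smaller than the intervals were not detectable with 3 libraries a group, and larger ones could also go uncalled. WT and CCP1 cKO libraries did not overlap for 2 of 26 genes, Cdh6 and Pcdh20, beside 9.8% of loci at this level, and for 1 of 6 genes from 0.1 to 1 FPKM, Pcdh15, beside 9.56% of loci in that range. For each of these 3 genes the two-sided exact permutation test gave p = 0.1, the smallest that 3 against 3 libraries allow. The count of genes without overlap was thus near the background.

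**Figure D2:**
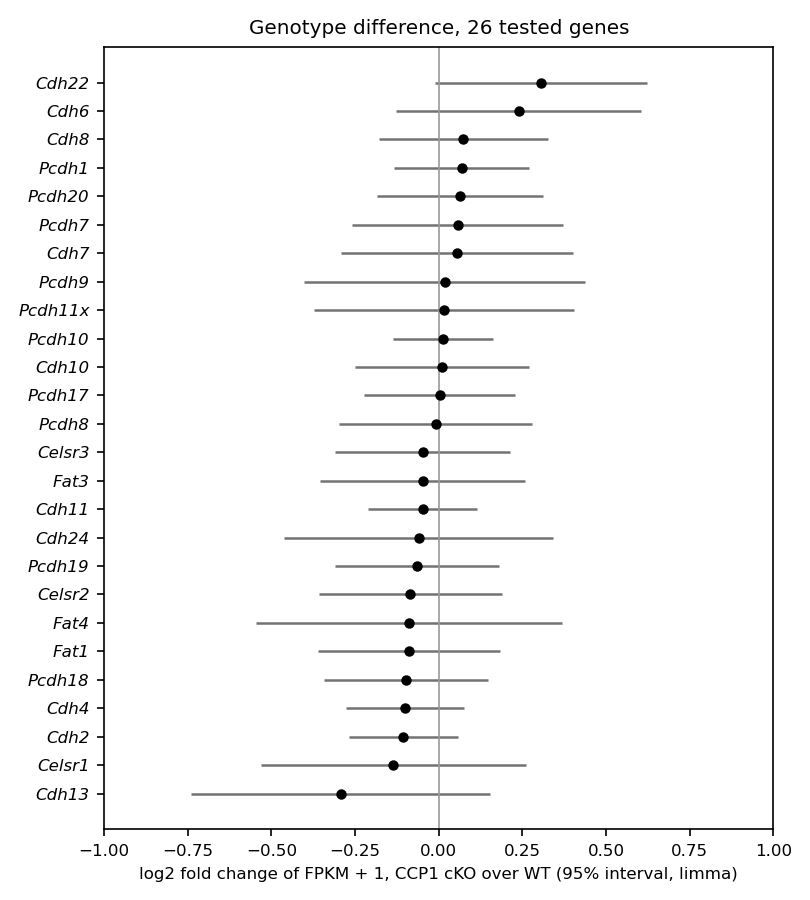
log2 fold change of FPKM + 1 in CCP1 cKO over WT for the 26 genes averaging 1 FPKM or more, ordered by value; points are limma estimates from 3 libraries a group and bars their 95% intervals. The points run from -0.29 (Cdh13) to 0.30 (Cdh22) and every interval holds 0.

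The low genes were also fitted without a filter. Pcdh15 then had a log2 fold change of -0.26 (limma unadjusted p = 0.0388, adjusted p = 0.978) and Cdh15, named here after its values were seen, of 0.18 (unadjusted p = 0.0292, adjusted p = 0.978). Cdh15 measured 0.0877, 0.0177 and 0 FPKM in WT and 0.205, 0.0771 and 0.239 FPKM in CCP1 cKO, and its groups overlapped. With a smaller pseudocount of 0.1 FPKM, chosen after seeing the data, the log2 fold change was -0.67 for Pcdh15 (95% interval -1.44 to 0.09) and 1.02 for Cdh15 (-0.06 to 2.09). The Cdh15 locus also overlaps the coding gene Gm20388 on its own strand.

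Libraries differed within genotypes in a way that many of these genes shared. Replicate 3 was the lowest library in both WT and CCP1 cKO for 12 of 26 genes (46.2%), beside 13.9% of all loci tested. The 12 were Cdh2, Cdh8, Cdh11, Cdh13, Pcdh7, Pcdh9, Pcdh11x, Pcdh18, Pcdh19, Fat1, Fat3 and Fat4. This pattern was chosen after the values were seen, and the genes share libraries, so the share is a description and carries no test. The median SD within genotype was 0.16 on the log2(FPKM + 1) scale for the 26 genes and 0.12 for all loci.

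The cortical excitatory markers showed a like order of libraries. Their 8 genes, which mark pallial progenitors and neurons, summed to 36.7, 42.3 and 10.1 FPKM in WT and to 32.1, 24.2 and 15.9 FPKM in CCP1 cKO, with Neurod6 the highest at a mean of 6.94 FPKM. Replicate 3 was lowest in each genotype, and the genotypes overlapped. This order was not particular to the cortical list. Replicate 3 of WT and of CCP1 cKO was also lowest for the low sums of pericyte (0.698 and 0.556 FPKM) and microglia markers (0.744 and 0.646 FPKM). It was highest for the sums of interneuron and subpallial (891 and 924 FPKM) and striatal markers (183 and 166 FPKM). Of these markers, 7 of 8 had a mean of at least 1 FPKM, and 0 of these 7 were at 0 in any library. The correlation of log2(FPKM + 1) with the log2 sum of these markers over the 6 libraries was above 0.8 for 11 of 26 genes (42.3%), beside 4.03% of all loci tested, and its median was 0.68 for the 26 genes and 0.08 for all loci. In relative depth WT replicate 3 was the highest library (1.14), and CCP1 cKO replicate 3 (1.06) lay within the range of the others.

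Fat4 (Pearson r = 0.975), Fat3 (r = 0.967) and Pcdh19 (r = 0.949) followed the marker sum most closely, each with Spearman rho = 1. Each of these r had an exact permutation p of 0.00139, the smallest that 720 orders of 6 libraries allow, and each rho one of 0.00278. Adjusted over the 13200 loci, the smallest p of the group was 0.632, and 0 of all loci passed, so no single correlation held after adjustment. At an unadjusted exact permutation p under 0.05 there were 9 of 26 genes, beside 5.46% of all loci. The correlation with these markers was taken up after their like order of libraries was seen. The genes also share the same 6 libraries, so these p-values and shares are descriptions.

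The libraries farthest from the median of the marker sum were WT replicate 3 and CCP1 cKO replicate 3. Without them, r stayed above 0.8 for 6 of the 11 genes. The share of all loci above 0.8 was not computed without them, so this split has no background and is a description. Among these 6 genes r was 0.896 for Fat4, 0.974 for Fat3, 0.859 for Pcdh19, 0.994 for Cdh11 and 0.963 for Cdh13. For the other 5 genes r was not above 0.8 without those libraries, being 0.443 for Pcdh11x and 0.520 for Pcdh9. Within a genotype 3 libraries are too few for a value. Outside the 11 genes the values were mixed. Among the abundant ones, Pcdh8 (r = 0.134), Pcdh10 (r = -0.05) and Cdh24 (r = -0.27) did not share the order. Others were positive below the bound of 0.8, with r = 0.655 for Cdh2, 0.709 for Cdh8, 0.794 for Pcdh18 and 0.623 for Celsr2. Without WT replicate 3 and CCP1 cKO replicate 3, r was 0.955 for Cdh2 and -0.886 for Cdh8. Over all the genes tested, r was positive for 21. The part of cortical cells in the levels of these cadherins was not tested.

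**Figure D3:**
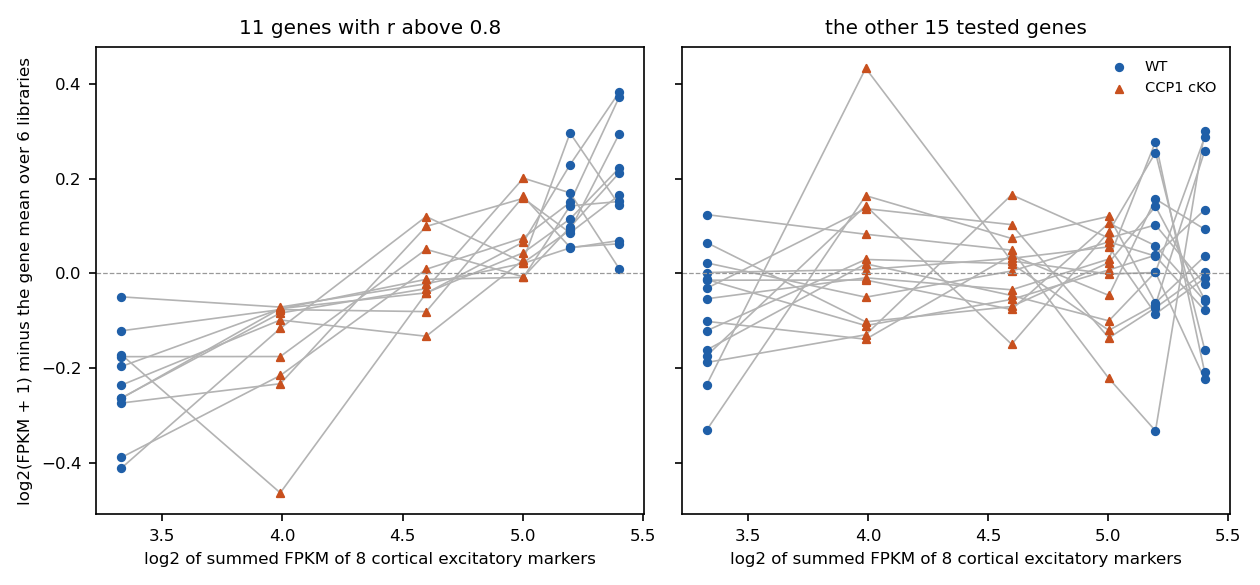
Each gene's log2(FPKM + 1) minus its mean over the 6 libraries, plotted against the log2 summed FPKM of 8 cortical excitatory markers in the same library; blue circles are WT, orange triangles CCP1 cKO, and grey lines join 1 gene across libraries. On the left, the 11 genes with r above 0.8 rise from the libraries with the lowest marker sums (10.1 FPKM in WT replicate 3, 15.9 FPKM in CCP1 cKO replicate 3) to the highest (42.3 FPKM in WT replicate 2); on the right, the other 15 genes have no common slope. The panels were split by r, so the left panel's slope is fixed by that choice.

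Partners of the cadherins were abundant and none passed between genotypes. Catenins and junction adaptors, which tie classical cadherins to actin, had 11 of 12 genes at 1 FPKM or more, led by Ctnnb1 (beta-catenin) at a mean of 360 FPKM. Cytoplasmic partners of delta protocadherins had 10 genes at that level, led by Set (201 FPKM). Planar polarity partners of Celsr had 8, led by the receptor Fzd3 (56.8 FPKM). Genes of the Fat and Dachsous pathway had 8, led by the transcription factor Tead2 (74.5 FPKM). Sheddases and gamma-secretase, which cleave cadherins, had 7, led by Psenen (38.9 FPKM), and nectins had 3, led by Nectin1 (17.3 FPKM). In each of these 6 lists, 0 genes had an adjusted or an unadjusted limma p under 0.05. The median log2 fold change lay between -0.12 for the delta-protocadherin partners and 0.03 for nectins. Of 20 further cadherin superfamily genes, 17 were under 1 FPKM and the 3 calsyntenins exceeded it, led by Clstn1 (53.3 FPKM), with 0 calls.

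Most of the 35 genes are long. The median locus length was 127 kb over the 35 genes and 133 kb over the 26 tested, beside 33.4 kb for 11676 named loci tested. Of the 35 genes, 21 exceeded 100 kb, beside 20.1% of those loci. The 35 include 9 genes under 1 FPKM, while the named loci all passed that filter. Length and level were weakly related across genes, with a Spearman rho of -0.15 over the 35 genes and -0.13 over the named loci, given as a description. The longest was Cdh13 at 1041 kb (chr8:118283636-119324919, plus strand, mm10), while Pcdh8 (chr14:79766772-79771312, minus strand) spans 4.54 kb and Cdh24 10.4 kb. The 5 type II genes of chromosome 15, namely Cdh6, Cdh9, Cdh10, Cdh12 and Cdh18, were all at a mean of 2.07 FPKM or less. Chromosome 14 by contrast holds Cdh24, Pcdh8, Pcdh9, Pcdh17 and Pcdh20, of which all but Pcdh20 exceeded 8 FPKM. Of the X-linked genes, Pcdh11x overlaps H2afb3 on the other strand.

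Promoter windows of 300 bases, from 250 before to 50 after the annotated start, were taken from RefSeq (GRCm38.p6). Such a window was found for 25 of the 35 genes and lay within 500 bases of the start of the deposited locus for 18. Printed here are the windows of Pcdh8 and Pcdh20, an abundant and a low protocadherin of chromosome 14, and of Cdh8 and Cdh6, an abundant and a low type II cadherin, since each pair sets a higher beside a lower level. They hold 4 to 21 CG, out of a range of 4 to 40 over the 18 windows. CG dinucleotides, the motif marked, are in capitals, on the strand of the gene. A second motif, CAGGTG or CACCTG, was also searched and is not marked. It was found in 7 of 28 windows of these genes (25.0%), beside 20.2% of all promoter windows. The count is of windows and not of genes. Cdh7 and Pcdh9 have more than 1 window each, and every window of Cdh7 held the motif, so the share is not read as an excess. CG reads the same on both strands.
Pcdh8: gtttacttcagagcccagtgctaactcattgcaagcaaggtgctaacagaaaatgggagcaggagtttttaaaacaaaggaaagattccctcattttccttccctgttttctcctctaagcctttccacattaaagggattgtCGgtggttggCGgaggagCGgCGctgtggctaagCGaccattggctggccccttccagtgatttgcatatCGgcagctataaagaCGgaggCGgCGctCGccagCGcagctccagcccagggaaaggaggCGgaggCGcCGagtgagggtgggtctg
Pcdh20: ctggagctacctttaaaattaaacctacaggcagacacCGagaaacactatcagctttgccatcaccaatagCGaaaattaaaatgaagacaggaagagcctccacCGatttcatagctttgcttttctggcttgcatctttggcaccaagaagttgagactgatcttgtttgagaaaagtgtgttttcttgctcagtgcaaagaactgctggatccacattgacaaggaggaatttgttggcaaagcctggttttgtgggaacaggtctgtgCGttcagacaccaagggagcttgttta
Cdh8: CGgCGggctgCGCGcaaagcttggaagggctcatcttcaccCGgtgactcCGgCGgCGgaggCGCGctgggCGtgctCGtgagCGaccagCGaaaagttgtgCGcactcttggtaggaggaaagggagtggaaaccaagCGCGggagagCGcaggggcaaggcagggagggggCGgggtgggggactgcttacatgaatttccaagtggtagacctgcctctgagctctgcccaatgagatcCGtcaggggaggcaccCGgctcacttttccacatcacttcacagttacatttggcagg
Cdh6: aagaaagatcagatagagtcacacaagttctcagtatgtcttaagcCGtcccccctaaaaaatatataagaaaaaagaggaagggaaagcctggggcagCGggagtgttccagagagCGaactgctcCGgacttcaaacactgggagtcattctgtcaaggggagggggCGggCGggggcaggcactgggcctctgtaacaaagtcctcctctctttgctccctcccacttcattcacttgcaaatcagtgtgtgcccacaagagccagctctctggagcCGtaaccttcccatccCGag

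The window of Pcdh8 (chr14:79771263-79771562, minus strand) holds 14 CG, and 36.3% of all 32851 promoter windows hold as many or more. That of Pcdh20 (chr14:88471347-88471646, minus strand) holds 4, and 68.6% of windows hold as many or more. The window of Cdh8 (chr8:99416422-99416721, minus strand) holds 21 (24.8% of windows) and that of Cdh6 (chr15:13173626-13173925, minus strand) holds 8 (48.7%). Over the 18 genes, the number of CG and the mean level had a Spearman rho of 0.682, and the ratio of observed to expected CG and the level one of 0.498. The median was 22.5 CG for the 10 genes averaging 5 FPKM or more and 10 for the 8 genes below it. Pcdh8 had 14 CG at 22.6 FPKM, fewer than the median of the abundant genes, while Cdh20 had 18 CG at 0.525 FPKM. The most abundant gene, Cdh2, has no window. Windows left out by distance include those of Fat1, with 2 CG at 12.6 FPKM, and of Celsr3, with 25 CG at 43.9 FPKM. The relation is across genes, which are not independent replicates, and is a description. It was not computed over all loci, so it is not shown to be particular to these genes.

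**Figure D4:**
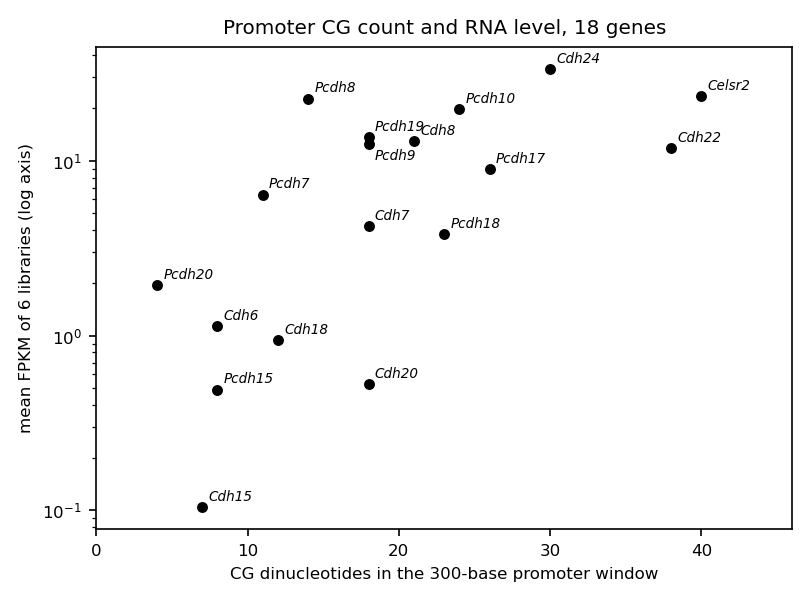
Number of CG dinucleotides in the 300-base promoter window against mean FPKM of 6 libraries, on a log axis, for the 18 genes whose window lies within 500 bases of the locus start; each point is 1 gene. Genes averaging 5 FPKM or more have a median of 22.5 CG and those below it a median of 10, with Pcdh8 and Cdh20 away from the trend.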

How the data were processed

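Cells were dissociated with papain, sorted for GFP, and their RNA depleted of ribosomal RNA and sequenced from a strand-keeping kit. The authors aligned paired-end reads to mm10 with Bowtie2 in the Tuxedo workflow and deposited FPKM per locus and library. Program versions, the annotation and any use of strand in counting are missing from the sources used here. The deposited authors' comparisons (fold changes, p-values and q-values) and isoform means were not used. Since FPKM are not counts, no count model was fitted.

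Genotypes were compared on log2(FPKM + 1) in limma (version 3.58.1, R 4.3.3, lmFit followed by trended eBayes). Loci averaging 1 FPKM or more entered the fit, 13200 in all, and p-values were adjusted over all of them by the Benjamini-Hochberg method, with a threshold of 0.05. The pseudocount lowers fold changes of low genes. The fit was tested on simulated data. Exact permutation and sign-flip tests over libraries, and summaries, were computed in Python 3.11.15 (SciPy 1.17.1, NumPy 2.4.6, pandas 2.3.3), and Matplotlib 3.10.9 drew the plots. Relative depth was read from the steps between low FPKM values. Coordinates are those of the deposited loci, counted from 1, and strands and overlaps were taken from GENCODE M21.

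The members and lists were chosen with earlier results of these data known. Values of every library were given for genes that passed, did not overlap between genotypes, were among the 12 highest, or had the largest log2 fold change of their subfamily, and of other lists the highest gene. For partner and marker genes with several loci, the locus with the highest mean FPKM was taken, and genes whose locus carries another gene were left out. Alternatives covered the pseudocount, the filter, the scaling, the block, the weights and left-out libraries.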

Additional observations from a re-analysis of the deposited data

How the results depend on the processing

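None of the 26 genes was called under any of the 20 alternatives. The count of called loci, 12, became 28 with rescaling to TPM, 24 with library weights, 1 over named loci only, 7 without replicate 3 of either genotype (chosen after seeing the data), and between 4 (without CCP1 cKO replicate 3) and 16 when 1 library was left out. The count of genes at an unadjusted limma p under 0.05, 0 as reported, was 2 without a filter (Cdh15 and Pcdh15), 1 over named loci only (Cdh22), 1 without replicate 1 of either genotype (Cdh22), and 0 to 3 with 1 library left out. The 3 were Cdh13, Fat4 and Pcdh19, without WT replicate 3, and Cdh22 was the 1 without replicate 1 of WT or of CCP1 cKO. The share of all loci at an unadjusted limma p under 0.05 is given only for the main fit (4.62%). Counts under the alternatives, the replicate block included, thus have no background beside them and are descriptions.

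With a replicate block, 16 loci and 0 of the 26 genes were called, and 1 gene had an unadjusted p under 0.05 (Cdh13). The numbers were not taken to pair the libraries, since the correlations of same-numbered deviations were 0.32, 0.11 and 0.036, and WT replicates 2 and 3 correlated best with another number (0.115 and 0.169).

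Uncalled log2 fold changes near 0 changed sign as follows. Pcdh8 became 0.011 with equal medians, 0.0034 with quantile normalization and 0.11 without replicate 1 of either genotype. Pcdh17 became -0.0059 with TPM, -0.016 with library weights, -0.049 without both replicate 1 and -0.018 without both replicate 3. Library weights also turned Cdh7 (-0.032), Cdh24 (0.031), Cdh10 (-0.041), Fat4 (0.042), Pcdh10 (-0.011), Fat1 (0.0066), Celsr3 (0.044) and Fat3 (0.014). Leaving out both replicate 1 turned Cdh10 (-0.0091) and Pcdh11x (-0.013), and both replicate 3 Cdh7 (-0.078), Pcdh9 (-0.12) and Pcdh7 (-0.0053). The cause was not tested. With 1 library left out, the range crossed 0 for 14 genes: Cdh7 (-0.020 to 0.19), Cdh8 (-0.0026 to 0.16), Cdh10 (-0.041 to 0.051), Cdh24 (-0.24 to 0.074), Pcdh7 (-0.061 to 0.16), Pcdh8 (-0.12 to 0.13), Pcdh9 (-0.18 to 0.17), Pcdh10 (-0.022 to 0.042), Pcdh11x (-0.12 to 0.14), Pcdh17 (-0.077 to 0.044), Celsr2 (-0.19 to 0.037), Celsr3 (-0.12 to 0.070), Fat3 (-0.19 to 0.051) and Fat4 (-0.31 to 0.076). Rescaling to TPM raised the printed levels, Cdh2 from 79.7 to 164. It also left 9 neighbouring pairs in one order in every library. This is no check of the order, since TPM divides all genes of a library by the same sum and cannot reorder them within it. Absolute depth is unknown, which limits genes under 1 FPKM most.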
